A study of Mus musculus with 22 samples.

Results

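The Ly6 genes described here are Ly6a, Ly6c1, Ly6c2, Ly6d, Ly6e, Ly6g and Ly6k, 7 of the 46078 genes counted by RNA sequencing of mouse distal colon. They were taken by gene symbol, after earlier results of these data had shown higher Ly6c1 in both Winnie groups, so their differences between groups are given as a description and without a p-value. The samples were distal colon of 8 C57BL/6 mice aged 14 weeks (4 males, 4 females), 7 Winnie mice aged 14 weeks (3 males, 4 females) and 7 Winnie-Prolapse mice aged 18 weeks (4 males, 3 females). Winnie mice carry a missense mutation in the mucin gene Muc2 in every cell and develop colitis without any added agent, and Winnie-Prolapse are Winnie mice in which the rectum had prolapsed. No mouse was given a drug, and the C57BL/6 mice came from the same colony. Age and prolapse cannot be told apart, because all prolapsed mice were 18 weeks old and all others 14.

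Ly6 proteins are small proteins of the cell surface that share the LU domain, a compact fold held by disulfide bonds, and most are tied to the outer membrane by a glycosylphosphatidylinositol (GPI) anchor. They are best known as antigens by which blood cells are sorted: Ly6a (Sca-1) marks blood stem cells, activated lymphocytes and endothelium, the Ly6c proteins mark inflammatory monocytes, and Ly6g marks neutrophils. Several of them respond to interferon, and Ly6a is also known from the epithelium of the injured and repairing colon.

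The 7 genes lie in 1 cluster on chromosome 15 of the mouse genome build GRCm38, where they span 397.1 kb and share the interval with other genes, 25 genes in all. By the GENCODE annotation all 7 are protein coding. The order along the chromosome was Ly6d (chr15:74762056-74763620, minus strand), Ly6k (chr15:74796874-74799986, minus), Ly6e (chr15:74955051-74959905, plus), Ly6a (chr15:74994877-74998031, minus), Ly6c1 (chr15:75044018-75048830, minus), Ly6c2 (chr15:75108158-75111970, minus) and Ly6g (chr15:75155240-75159126, plus). Neighbours resemble each other in sequence, which matters for counting. Of the 1756 different 100-base stretches in Ly6c1 transcripts, 159 also occurred in Ly6c2 and 19 in Ly6a, together 10.1%. The share was 5.81% for Ly6c2 and 1.45% for Ly6a, and none of the stretches of Ly6d, Ly6e or Ly6g occurred in another gene. Ly6k overlaps Gm17189 on the other strand and shared 18.5% of its stretches with it, so their reads cannot be told apart if strand was not used in counting. Counts of these pairs are uncertain to that extent.

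The RefSeq tables held upstream sequence for Ly6c1, Ly6c2 and Ly6g, each with 2 start sites. The 250 bases before the outer start site are shown for each, 5′ to 3′ on the strand of the gene in GRCm38.p6, because these 3 genes are neighbours of similar sequence and are the ones for which the table held an entry. Capitals mark CCAAT and TATAAA.
Ly6c1, chr15:75048838-75049087, minus strand: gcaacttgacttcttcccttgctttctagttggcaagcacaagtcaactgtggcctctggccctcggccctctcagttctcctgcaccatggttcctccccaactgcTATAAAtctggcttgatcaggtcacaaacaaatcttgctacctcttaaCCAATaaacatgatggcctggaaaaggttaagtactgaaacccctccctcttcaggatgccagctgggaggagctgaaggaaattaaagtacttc
Ly6c2, chr15:75111972-75112221, minus strand: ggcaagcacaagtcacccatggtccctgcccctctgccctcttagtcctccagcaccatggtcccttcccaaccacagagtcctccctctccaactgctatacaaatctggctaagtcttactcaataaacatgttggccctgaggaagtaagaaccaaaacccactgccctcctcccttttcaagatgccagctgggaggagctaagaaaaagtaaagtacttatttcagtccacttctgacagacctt
Ly6g, chr15:75155011-75155260, plus strand: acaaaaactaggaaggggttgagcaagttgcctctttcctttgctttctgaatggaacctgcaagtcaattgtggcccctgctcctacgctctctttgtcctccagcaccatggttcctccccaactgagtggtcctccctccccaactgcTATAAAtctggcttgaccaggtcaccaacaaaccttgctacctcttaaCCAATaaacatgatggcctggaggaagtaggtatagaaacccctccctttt
In a global alignment, 175 of 204 aligned bases (85.8%) were identical between Ly6c1 and Ly6g, 171 of 210 (81.4%) between Ly6c1 and Ly6c2, and 156 of 190 (82.1%) between Ly6c2 and Ly6g. These shares leave out 92, 80 and 120 bases that the alignments set against gaps. Ly6c1 held TATAAA at -143 and CCAAT at -95 from the start site, Ly6g held them at -99 and -51, and the Ly6c2 window held neither. Searched on both strands, TATAAA was found in 12.4% and CCAAT in 33.8% of all 32851 windows of this length in the RefSeq table. The interferon-stimulated response element and the letters TTCNNNGAA (the gamma-activated site) were in none of the 6 windows of these 3 genes, against 2.98% and 7.02% of all windows. These are matches of letters in short windows and say nothing of which factors bind.

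Libraries held 24.8 to 36.3 M counts, and values are given as CPM, counts scaled to the same total in every library. A limit of 3 counts corresponded to 0.0825 to 0.121 CPM. In 2 libraries other genes went against the rest. C57BL/6 replicate 7 held 16.4 CPM of Hoxb13 and 0.217 CPM of Hoxd13, transcription factors that mark the end of the hindgut, against 177 to 612 CPM and 111 to 288 CPM in the other 21 libraries. Hoxa13, of the same group of genes, was within the range of the other C57BL/6 libraries there, at 86.6 CPM against 71.8 to 101 CPM. Hoxd10, Hoxd11 and Hoxd12 were below all 21 other libraries too, so 5 of the 6 posterior Hox genes went against its label of distal colon. Its Muc2 was at 7901 CPM, against 1029 to 3893 CPM in the others. In Winnie-Prolapse replicate 6, 18.9% of all counts came from 7 milk protein genes, against at most 0.00589% elsewhere. Calls of the Ly6 genes, their relatives and the lists that changed without either library are given without it as well.

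Ly6c1 encodes a Ly6C antigen of monocytes, T cells and endothelium. Its level ran from 12.8 to 26.4 CPM in C57BL/6 (median 18.1), from 22.2 to 235 CPM in Winnie (median 118) and from 255 to 586 CPM in Winnie-Prolapse (median 414). All Winnie-Prolapse libraries lay above all libraries of both other groups, and 6 of 7 Winnie libraries lay above all C57BL/6 libraries. The exception was Winnie replicate 5, whose 22.2 CPM fell inside the C57BL/6 range. C57BL/6 averaged 18.2 ± 4.15 CPM (SD, n = 8), Winnie averaged 136 ± 89.3 CPM (SD, n = 7) and Winnie-Prolapse averaged 406 ± 119 CPM (SD, n = 7), so the mean was 7.48 times the C57BL/6 mean in Winnie and 22.4 times in Winnie-Prolapse. The fit gave a log2 fold change of 3.00 ± 0.41 (SE) for Winnie against C57BL/6, of 4.59 ± 0.22 (SE) for Winnie-Prolapse against C57BL/6 and of 1.60 ± 0.45 (SE) for Winnie-Prolapse against Winnie. The spread in Winnie was wide, with a coefficient of variation of 65.7% against 22.8% in C57BL/6 and 29.3% in Winnie-Prolapse. Without C57BL/6 replicate 7 and Winnie-Prolapse replicate 6 the difference between prolapsed and C57BL/6 colon was 4.46 ± 0.23 on the log2 scale.

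**Figure D1:**
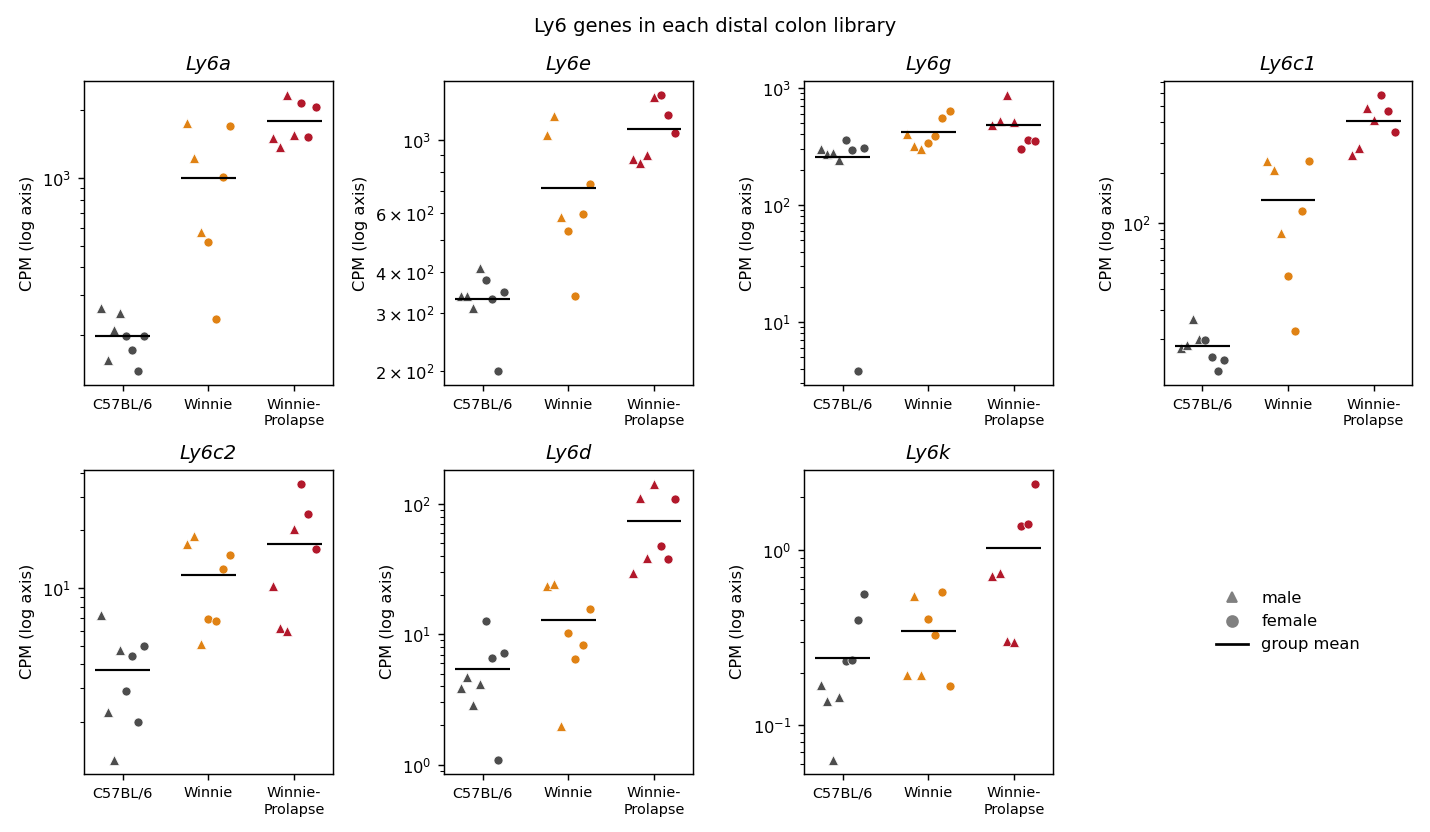
Level of each Ly6 gene in each library, in CPM on a log axis of its own per gene. Triangles are males, circles females and lines group means. Ly6c1 in Winnie-Prolapse (255 to 586 CPM) lies above every library of the other groups, and Ly6g in 1 C57BL/6 library lies at 3.80 CPM.

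Ly6a encodes Sca-1. It ran from 138 to 263 CPM in C57BL/6 (median 198), from 235 to 1761 CPM in Winnie (median 1013) and from 1376 to 2346 CPM in Winnie-Prolapse (median 1547). The prolapsed colons did not overlap the C57BL/6 colons, while the highest Winnie libraries lay inside the Winnie-Prolapse range. Mean levels were 198 ± 43.7 CPM (SD, n = 8), 1004 ± 594 CPM (SD, n = 7) and 1788 ± 386 CPM (SD, n = 7). Against C57BL/6 the fit gave Winnie a log2 fold change of 2.45 ± 0.35 (SE) and Winnie-Prolapse one of 3.27 ± 0.19 (SE), and between the Winnie groups it gave 0.84 ± 0.38 (SE).

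Ly6e encodes an interferon-induced member that limits the entry of several viruses into cells. Its level ran from 200 to 409 CPM in C57BL/6 (median 337), from 337 to 1185 CPM in Winnie (median 599) and from 851 to 1369 CPM in Winnie-Prolapse (median 1047). As for Ly6a, the prolapsed colons stood clear of C57BL/6 and overlapped Winnie. The means of 332 ± 61.3 CPM (SD, n = 8), 715 ± 297 CPM (SD, n = 7) and 1083 ± 221 CPM (SD, n = 7) went with log2 fold changes against C57BL/6 of 1.19 ± 0.22 (SE) for Winnie and 1.80 ± 0.15 (SE) for Winnie-Prolapse. Between the Winnie groups the log2 fold change was 0.61 ± 0.24 (SE).

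Ly6c2, a close relative of Ly6c1 that serves as a marker of inflammatory monocytes, was far lower. It ran from 1.27 to 7.28 CPM in C57BL/6 (median 3.65), from 5.13 to 18.7 CPM in Winnie (median 12.5) and from 5.96 to 35.1 CPM in Winnie-Prolapse (median 16.0). Both Winnie groups overlapped C57BL/6, with 4 of 7 Winnie and 5 of 7 Winnie-Prolapse libraries above every C57BL/6 library. Set against C57BL/6, its log2 fold change came to 1.74 ± 0.37 (SE) for Winnie and 2.27 ± 0.43 (SE) for Winnie-Prolapse, and it came to 0.54 ± 0.42 (SE) between the Winnie groups. The ratio of their counts was taken in each library. There were 5.29 Ly6c1 counts per Ly6c2 count in the median C57BL/6 library (2.44 to 20.8), 11.1 in Winnie (3.28 to 17.0) and 21.9 in Winnie-Prolapse (16.7 to 81.5), with overlap between each pair of groups. All Winnie ratios and 3 of the 7 Winnie-Prolapse ratios lay inside the C57BL/6 range, and the difference was not tested. Among prolapsed colons, replicates 2 and 3 had the least Ly6c2 (6.18 and 5.96 CPM). Their Ly6c1 was 280 and 486 CPM, below and above the group median of 414 CPM.

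**Figure D2:**
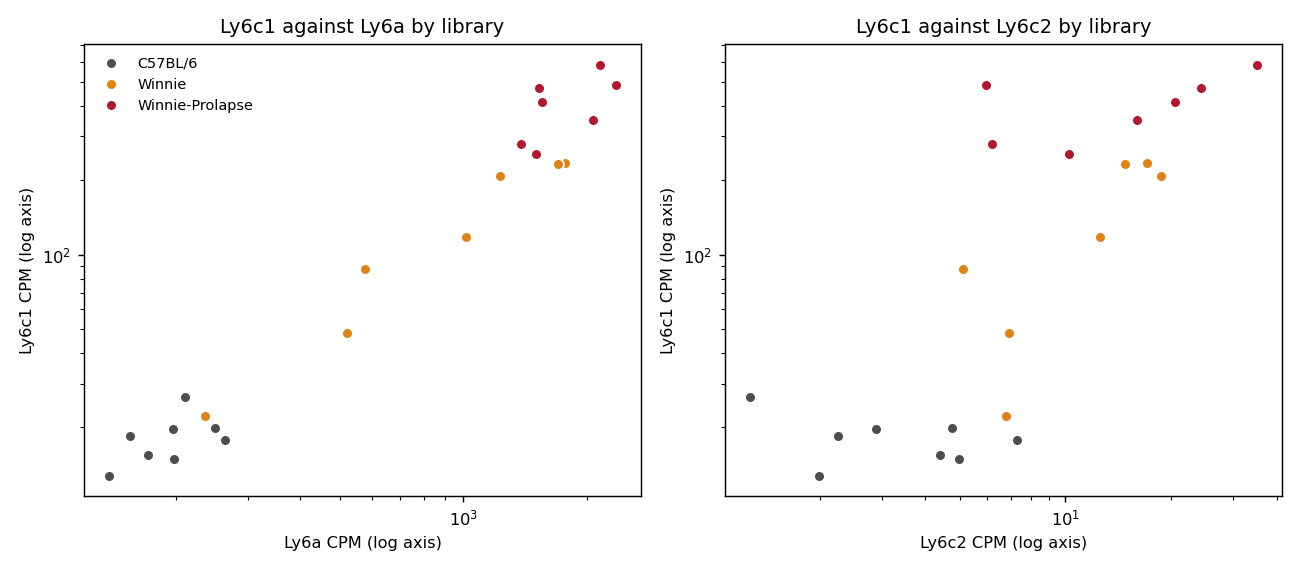
Ly6c1 against Ly6a (left) and against Ly6c2 (right), both axes in CPM on log scales, 1 point per library and 1 colour per group. Winnie libraries run from the C57BL/6 points to the Winnie-Prolapse points in the left panel, and in the right panel the 2 Winnie-Prolapse libraries with the least Ly6c2 (5.96 and 6.18 CPM) have the highest ratios of Ly6c1 to Ly6c2.

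Ly6d encodes a member found on keratinocytes and on early lymphocytes. It ran from 1.09 to 12.6 CPM in C57BL/6 (median 4.46), from 1.97 to 24.4 CPM in Winnie (median 10.2) and from 29.7 to 144 CPM in Winnie-Prolapse (median 48.1). The Winnie libraries lay across the C57BL/6 range, and all prolapsed colons lay above both. Its means were 5.39 ± 3.49 CPM (SD, n = 8), 12.9 ± 8.56 CPM (SD, n = 7) and 74.1 ± 46.1 CPM (SD, n = 7). Its log2 fold change against C57BL/6 came to 1.36 ± 0.49 (SE) for Winnie and 3.83 ± 0.45 (SE) for Winnie-Prolapse. Between the Winnie groups it came to 2.48 ± 0.50 (SE), the greatest of the 7 genes in that comparison. The 3 prolapsed colons with the most Ly6d were replicate 4 (144 CPM), replicate 2 (111 CPM) and replicate 7 (110 CPM). The same 3 libraries had the most RNA of 10 squamous epithelium markers, with sums of 1258, 2204 and 2930 CPM. These markers are keratins and cornified envelope genes of stratified epithelia, with Trp63 and Dsg3 added. The summed level of these markers was 3.81 to 47.6 CPM in C57BL/6, 6.27 to 116 CPM in Winnie and 106 to 2930 CPM in Winnie-Prolapse. Of the 4 squamous markers that could be tested in Winnie-Prolapse against C57BL/6, 2 reached the low-count filter (0.342 CPM in 7 libraries) only through Winnie-Prolapse, so no count of calls is given, and Ivl was at 0 in every C57BL/6 library. C57BL/6 replicate 7 had the highest squamous sum of its group (47.6 CPM) and the lowest Ly6d (1.09 CPM). Of that sum 44.6 CPM was Sprr1a alone, so it is no measure of the list as a whole. In Winnie, too, Sprr1a averaged 35.3 CPM of a mean sum of 44.8 CPM. The part of squamous epithelium in the level of Ly6d was not tested. In bulk tissue a different number of cells of a type and a different amount of RNA per cell cannot be told apart.

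Ly6g, the antigen by which mouse neutrophils are sorted, was among the most abundant of the 7 genes in healthy colon. It ran from 3.80 to 356 CPM in C57BL/6 (median 286), from 299.9 to 639 CPM in Winnie (median 391) and from 302 to 872 CPM in Winnie-Prolapse (median 486). The low value was that of C57BL/6 replicate 7 alone, and the other 7 C57BL/6 libraries lay between 242 and 356 CPM. The C57BL/6 mean of 257 ± 107 CPM (SD, n = 8) became 293 ± 35.6 CPM (SD, n = 7) without that library. Set against C57BL/6, Winnie had a log2 fold change of 0.81 ± 0.50 (SE) and Winnie-Prolapse one of 1.02 ± 0.51 (SE), and without replicate 7 it was 0.62 ± 0.18 (SE) and 0.84 ± 0.21 (SE). Between the Winnie groups it was 0.21 ± 0.26 (SE).

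The level of Ly6g was set beside 10 other neutrophil markers. In C57BL/6 all 10 together came to 0.869 to 4.13 CPM, and S100a8 and S100a9, the most abundant transcripts of neutrophils, each reached at most 0.617 CPM. The 7 C57BL/6 libraries with 242 to 356 CPM of Ly6g were thus nearly without the other neutrophil transcripts. The sum was 2.33 to 138 CPM in Winnie and 75.5 to 1478 CPM in Winnie-Prolapse. Of the 7 markers that could be tested in Winnie-Prolapse against C57BL/6, 5 reached the low-count filter only through Winnie-Prolapse, so no count of calls is given. The prolapsed colon with the most Ly6g, replicate 3 (872 CPM), had 85.4 CPM of these markers, whereas replicate 4, with 1478 CPM of them, had 512 CPM of Ly6g. No marker was at 0 in all libraries of a group.

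**Figure D3:**
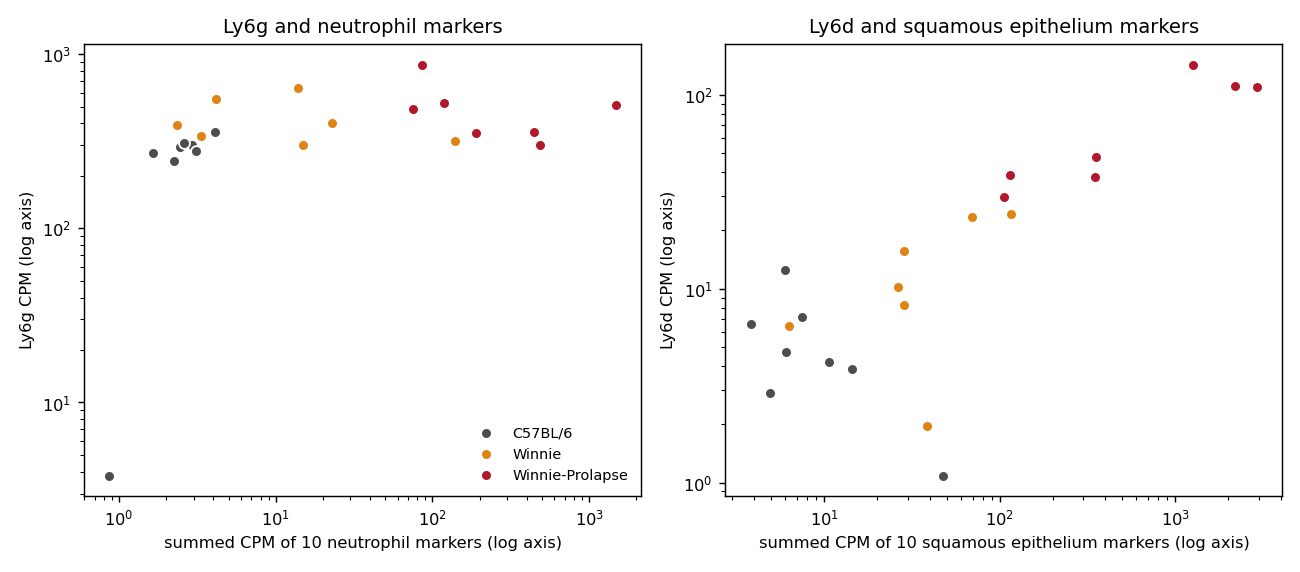
Ly6g against the summed CPM of 10 neutrophil markers (left) and Ly6d against the summed CPM of 10 squamous epithelium markers (right), both on log axes, 1 point per library and 1 colour per group. Ly6g stays between 242 and 872 CPM in 21 libraries while the neutrophil sum runs up to 1478 CPM, and the 3 libraries with the highest squamous sums also have the most Ly6d.

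Ly6k, known from testis, was the lowest of the 7 genes. It had 2 to 17 counts in each C57BL/6 library, or 0.0635 to 0.563 CPM (median 0.201), and ran from 0.167 to 0.575 CPM in Winnie (median 0.328) and from 0.297 to 2.39 CPM in Winnie-Prolapse (median 0.744). It did not pass the low-count filter in Winnie against C57BL/6. In the prolapsed colons its log2 fold change was 2.17 ± 0.50 (SE) against C57BL/6 and 1.58 ± 0.49 (SE) against Winnie.

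Counted by the limits of an adjusted p under 0.001 and at least 1.5-fold in edgeR's quasi-likelihood test, 0 of the 6 Ly6 genes tested were past the test in Winnie against C57BL/6, where 0.0925% of 17289 genes were. The groups overlapped for all 6, against 0.463% of genes higher without overlap. In that comparison 5 of the 6 had an unadjusted p under 0.05, as did 39.9% of all genes. DESeq2 placed 4 of 7 past the limits, with 6.32% of all genes, and limma-voom 0 of 6, with 0.0%. Without Winnie replicate 5 edgeR placed 3 past them (Ly6a, Ly6c1 and Ly6e), with 3.89% of all genes, and without Winnie replicate 4 it placed Ly6c1 there, with 0.149%. In Winnie-Prolapse against C57BL/6 the test placed 5 of 7 past the limits, all higher (Ly6a, Ly6c1, Ly6c2, Ly6d and Ly6e), where 9.84% of 17397 genes were called higher. Ly6k reached the low-count filter there through libraries of both groups. Winnie-Prolapse replicates 3 and 4 (0.303 and 0.297 CPM) stayed below its 0.342 CPM. C57BL/6 replicates 7 and 8 (0.398 and 0.563 CPM) lay above it. Only 13 of the 15 fits that left out 1 library tested Ly6k. DESeq2 placed 6 past the limits, Ly6k added, with 23.0% of all genes in either direction, and limma-voom 4, without Ly6c2, with 17.6%. An unadjusted p under 0.05 was found for 6 of 7, as for 58.5% of all genes. Ly6c2 passed in 7 of the 15 fits that left out 1 library and the other 4 in all 15. The libraries without which Ly6c2 did not pass were C57BL/6 replicates 2, 4, 5 and 6 and Winnie-Prolapse replicates 4, 5, 6 and 7. There was no overlap of the groups for 4 of 7 (Ly6a, Ly6c1, Ly6d and Ly6e), against 6.5% of genes higher without overlap. In Winnie-Prolapse against Winnie it placed 0 of 7 past the limits, as for 0.0% of 17041 genes, with 5 of 7 at an unadjusted p under 0.05, as for 27.8% of all genes, 1 of 7 by DESeq2 (Ly6d), as for 3.48%, and 0 by limma-voom, as for 0.0%. Here the groups did not overlap for Ly6c1 and Ly6d, against 0.411% of genes. The median log2 fold change of the genes tested was 1.55, 2.27 and 0.84 in the 3 comparisons, beside -0.01, -0.01 and 0.01 over all genes tested. Because the genes were picked on these contrasts, nothing is read from these counts, and the comparisons share their samples.

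**Figure D4:**
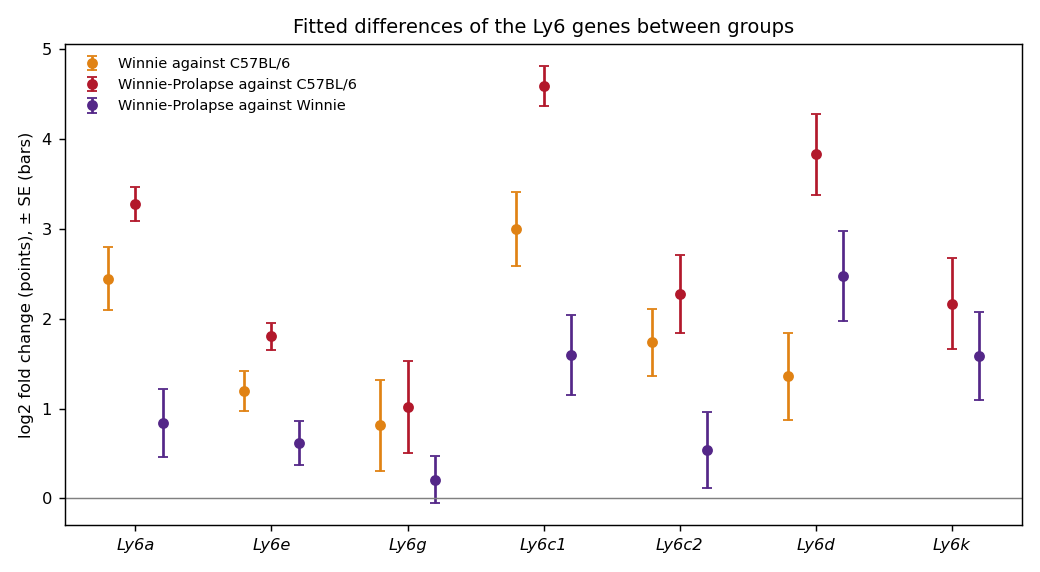
Fitted log2 fold change (points) with its standard error (bars) of each Ly6 gene in the 3 comparisons of groups. Ly6c1 has the highest point against C57BL/6 in both Winnie (3.00) and Winnie-Prolapse (4.59), and Ly6d the highest between the Winnie groups (2.48). Ly6k was not fitted in Winnie against C57BL/6.

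Levels were compared between genes as CPM per kb of exon. In C57BL/6 the order was Ly6g (272 CPM per kb), Ly6a (164), Ly6e (87.6), Ly6c1 (10.8), Ly6d (7.24), Ly6c2 (1.36) and Ly6k (0.293). Of the neighbours in that order, Ly6a and Ly6e, and Ly6e and Ly6c1, did not overlap over the libraries, and the other pairs did. Without C57BL/6 replicate 7 the order was the same, and Ly6g and Ly6a, and Ly6d and Ly6c2, did not overlap either. In Winnie the order was Ly6a (833 CPM per kb), Ly6g (446), Ly6e (189), Ly6c1 (81.0), Ly6d (17.4), Ly6c2 (4.27) and Ly6k (0.415), with Ly6g and Ly6e, and Ly6c2 and Ly6k, not overlapping. In Winnie-Prolapse it was Ly6a (1483 CPM per kb), Ly6g (516), Ly6e (286), Ly6c1 (242), Ly6d (99.6), Ly6c2 (6.17) and Ly6k (1.25), with Ly6a and Ly6g, and Ly6d and Ly6c2, not overlapping, with or without replicate 6. In Winnie-Prolapse Ly6c1 and Ly6e thus overlapped, whereas in C57BL/6 they were clearly apart. The 7 genes together held 813 ± 194 CPM (SD, n = 8), 2300 ± 989 CPM (SD, n = 7) and 3855 ± 592 CPM (SD, n = 7). Of that sum Ly6c1 made up 2.34%, 5.28% and 10.4%, and Ly6g 29.3%, 21.0% and 12.7%.

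Whether the genes differed between the sexes, which had no part in their choice, was tested in a fit of all 22 libraries that also held the group. Of the 7 genes 0 were called at an adjusted p under 0.05 by edgeR's quasi-likelihood test, where 0.0768% of 18236 genes were, with 1 at an unadjusted p under 0.05, as for 4.49% of all genes, and 0 by DESeq2, as for 0.0914%. That gene was Ly6k, whose log2 difference of males minus females was -1.28 ± 0.30 (SE), with an unadjusted p of 0.000317 and an adjusted p of 0.263 in edgeR. It was higher in females without overlap in C57BL/6 (0.357 against 0.129 CPM on average) and in Winnie-Prolapse (1.72 against 0.513 CPM), and overlapped in Winnie. Of all genes tested, the sexes did not overlap for 3.3% among C57BL/6, 21.3% among Winnie and 3.98% among Winnie-Prolapse mice. For the Ly6 genes they did not overlap in 3 of 21 sets of values. For the other 6 genes the adjusted p lay between 0.966 and 0.996 in edgeR. The sex by group interaction was called for 0 of 7 genes, as for 0.0% of 18911 genes, with 1 at an unadjusted p under 0.05 (Ly6e, 0.0436, adjusted p = 0.381 in edgeR), as for 12.7% of all genes, and 0 by DESeq2, as for 0.829%. Ly6g in Winnie-Prolapse was 486 to 872 CPM in the 4 males and 302 to 356 CPM in the 3 females without overlap, while its interaction had an adjusted p of 0.715 in edgeR.

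Within each group, correlations of log2 CPM between the genes were tested for 21 pairs, 63 tests in all, with two-sided exact permutation p-values. After Benjamini-Hochberg adjustment 1 pair passed 0.05, Ly6a with Ly6c1 in Winnie. Over the 7 Winnie mice Pearson's r was 0.98 (exact permutation p = 0.000198, adjusted p = 0.0125) and Spearman's rho was 1 (exact permutation p = 0.000397, adjusted p = 0.025). Without the 2 libraries farthest from the median of Ly6a, r was 0.952. On leaving out each Winnie library in turn r stayed between 0.954 and 0.989, with 6 mice left. With 6 mice the smallest adjusted p that 1 pair can reach on its own is 0.0875, and several pairs at the smallest p reach a lower one together. The same pair had r = 0.526 (exact permutation p = 0.178, adjusted p = 0.48) in the 8 C57BL/6 mice and r = 0.626 (exact permutation p = 0.14, adjusted p = 0.442) in the 7 Winnie-Prolapse mice. Of the 63 tests 13 had an unadjusted p under 0.05, of which 7 were in Winnie. Next came pairs at an adjusted p of 0.0625 by the exact permutation test. They were Ly6c1 with Ly6e (r = 0.909) and Ly6c2 with Ly6d (r = 0.886) in Winnie, and Ly6d with Ly6g (r = 0.809) in C57BL/6. In C57BL/6, Ly6c1 and Ly6k had r = -0.862 (adjusted p = 0.0771). In the 7 Winnie-Prolapse mice Ly6c2 and Ly6e had r = 0.922 (exact permutation p = 0.00734, adjusted p = 0.0771). There Ly6c2 and Ly6g had r = -0.818 (exact permutation p = 0.0204, adjusted p = 0.14), and Ly6g and Ly6k had r = -0.835 (exact permutation p = 0.02, adjusted p = 0.14). The difference in r between groups was not tested.

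Markers of other cell types were set beside the Ly6 genes. Of 10 monocyte and macrophage markers 7 were higher in Winnie-Prolapse than in C57BL/6, where 9.84% of all genes were called higher. The sum of all 10 was 728 to 905 CPM in C57BL/6, 703 to 1930 CPM in Winnie and 1024 to 2114 CPM in Winnie-Prolapse. Most of it was Plac8, which averaged 657 CPM of a mean sum of 824 CPM in C57BL/6 and 1073 of 1323 CPM in Winnie. Of the 7 T cell markers that reached the low-count filter in C57BL/6 itself 4 were higher, with sums over all 10 of 6.79 to 31.2, 19.4 to 53.2 and 25.8 to 69.5 CPM. Of 10 plasma cell markers 8 were higher (6 without Winnie-Prolapse replicate 6), with sums of 459 to 816, 722 to 1875 and 1496 to 2210 CPM. In C57BL/6 Sdc1 averaged 212 CPM and Xbp1 181 CPM of a mean sum of 597 CPM. In Winnie Jchain averaged 706 CPM and Sdc1 195 CPM of a mean sum of 1225 CPM. Endothelial markers, which matter for Ly6a and Ly6c1, were called for 1 of 10 in edgeR. Their sums were 70.0 to 95.5, 43.3 to 156 and 85.8 to 239 CPM. At an adjusted p under 0.05, 5 of 10 were higher, where 34.4% of all genes passed in either direction. An unadjusted p under 0.05 was found for 7, as for 58.5% of all genes. DESeq2 called 4, and 23.0% of all genes. Nothing is read from these counts about the endothelial list. Genes of the regenerating colonic epithelium were higher for 3 of the 8 that reached the filter in C57BL/6 itself (4 without C57BL/6 replicate 7), with sums over the whole list of 448 to 1128, 679 to 1296 and 1297 to 2931 CPM. Markers of mature colonic epithelium were called for 0 of 9 in edgeR (1, Krt20, without C57BL/6 replicate 7) and 0 by DESeq2. Of these 9, 4 had an unadjusted p under 0.05, beside 58.5% of all genes, so nothing is read from the 4. None of these lists had a marker at 0 in all libraries of a group, and the part of these cells in the Ly6 levels was not tested. Winnie replicate 5, the Winnie library nearest to C57BL/6 in Ly6c1, Ly6a and Ly6e, also had the lowest monocyte, neutrophil, squamous, plasma cell, mature colonic epithelium and interferon sums of its group, but not the lowest T cell, endothelial or regenerating epithelium sum.

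Several Ly6 genes respond to interferon. Of 21 genes of interferon signalling and response, 11 were higher and 0 lower in Winnie-Prolapse than in C57BL/6, where 9.84% of all genes were higher. It was 10 of 20 without Ifng, which reached the filter only through Winnie-Prolapse, and 14 of 21 without C57BL/6 replicate 7. The median log2 fold change was 1.17 over the list against -0.01 over all genes. Gbp2, an interferon-induced GTPase, averaged 33.4 ± 7.12 CPM over the C57BL/6 mice (SD), 466.4 ± 382 CPM over the Winnie mice and 710 ± 365 CPM over the Winnie-Prolapse mice (log2 fold change in Winnie-Prolapse 4.47 ± 0.27, adjusted p = 1.29e-08 in edgeR). Irf1, a transcription factor of the interferon response, was 129 ± 12.7 CPM in C57BL/6 and 319 ± 80.4 CPM in Winnie-Prolapse (1.38 ± 0.13, adjusted p = 1.44e-06 in edgeR). Ifng, the ligand itself, had at most 1 count in any C57BL/6 library and 4.28 ± 3.17 CPM (SD, n = 7) in Winnie-Prolapse, and was singled out after its values were seen. Of the receptor chains and kinase among the abundant genes of the list, Ifngr1 had a log2 fold change of -0.44 ± 0.14 (adjusted p = 0.0125 in edgeR), Ifngr2 of -0.20 ± 0.15 (adjusted p = 0.285 in edgeR) and Jak1 of 0.06 ± 0.09 (adjusted p = 0.621 in edgeR). In Winnie against C57BL/6, 0 of 20 tested genes passed the limits in edgeR, where 0.0925% of all genes did. An unadjusted p under 0.05 was found for 15, where 39.9% of all genes had one. DESeq2 placed 10 past the limits, with 6.32% of all genes. Between the Winnie groups 0 of 21 passed in edgeR, as for 0.0% of all genes. There 6 had an unadjusted p under 0.05, as for 27.8% of all genes, so nothing is read from the 6. DESeq2 placed 2 past the limits, with 3.48% of all genes. The summed level of the list was 1292 to 1553 CPM in C57BL/6, 1342 to 3242 CPM in Winnie and 2044 to 4055 CPM in Winnie-Prolapse. In C57BL/6 Ifngr1 averaged 350 CPM, Ifngr2 256 CPM and Jak1 159 CPM of a mean sum of 1391 CPM. The sum is thus no measure of the response genes alone. The part of interferon in the Ly6 levels was not tested.

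The anchor on which most Ly6 proteins depend is built by GPI assembly genes. Of 27 such genes 2 were higher and 2 lower in Winnie-Prolapse than in C57BL/6, with a median log2 fold change of 0.11. Of all 17397 genes 18.3% were called there in either direction, so nothing is read from these counts about the list. Pigt, a subunit of the transamidase that attaches the anchor, averaged 152 ± 15.2 CPM over the C57BL/6 mice and 221 ± 27.3 CPM over the Winnie-Prolapse mice (SD) (0.62 ± 0.07, adjusted p = 8.11e-06 in edgeR). Pgap1, which remodels the anchor after attachment, was 24.3 ± 10.5 CPM and 67.7 ± 19.6 CPM (1.54 ± 0.22, adjusted p = 5.26e-05 in edgeR). The lower genes were Pigv (-0.73 ± 0.12, adjusted p = 0.000146 in edgeR), a mannosyltransferase, and Pgap3 (-0.76 ± 0.11, adjusted p = 7.08e-05 in edgeR), another remodelling enzyme, both named after their values were seen. The abundant Pigq, Pgap2 and Pigs did not pass the limits, at 0.32 ± 0.06, -0.05 ± 0.09 and 0.30 ± 0.09. In Winnie against C57BL/6 0 of 27 passed in edgeR, with 13 at an unadjusted p under 0.05, as for 39.9% of all genes, and 0 by DESeq2.

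Of 31 other genes of the wider Ly6/uPAR family 30 were in the table, and 16 had enough counts to be tested in Winnie-Prolapse against C57BL/6. Ly6i, Slurp1, Gml and Hemt1 reached the low-count filter only through Winnie-Prolapse, so their place among the higher genes was in part fixed by the filter. Of the other 12 relatives, 2 were higher (Plaur and Ly6g6e) and 0 lower past the limits, where 9.84% of all genes were higher. Without C57BL/6 replicate 7 it was 4 of the 12, with 2010109I03Rik and Ly6g6c added. DESeq2 placed 6 of the 12 past the limits, of which 5 were higher, with 23.0% of all genes in either direction. Ly6g6c averaged 3.63 ± 3.65 CPM over the C57BL/6 mice and 25.2 ± 24.4 CPM over the prolapsed mice (SD) (2.77 ± 0.59, adjusted p = 0.00111 in edgeR). Replicate 7 held 12.6 CPM of it where the other 7 C57BL/6 libraries averaged 2.35 CPM, and without replicate 7 the log2 fold change was 3.41 ± 0.51. At an adjusted p under 0.05, 6 of the 12 were higher and 2 lower, where 34.4% of all genes passed in either direction. The lower genes were Cd59a and Cd59b, which encode inhibitors of complement and were named after their values were seen. Cd59a averaged 19.7 ± 9.66 CPM over the C57BL/6 mice and 8.84 ± 3.95 CPM over the prolapsed mice (SD) (-1.09 ± 0.29, adjusted p = 0.00573 in edgeR), with 6 of 7 prolapsed colons below every C57BL/6 library. C57BL/6 replicate 7 held 43.5 CPM of it, and without that library the log2 fold change was -0.80 ± 0.22. Plaur, the receptor of urokinase, averaged 6.85 ± 2.39 CPM over the C57BL/6 mice and 88.2 ± 53.8 CPM over the prolapsed mice (SD) (3.74 ± 0.31, adjusted p = 3.46e-07 in edgeR). Ly6i, a further gene of the Ly6c type, was 0.347 ± 0.23 CPM and 8.56 ± 7.13 CPM. Slurp1, secreted by keratinocytes, was 0.381 ± 0.296 CPM and 6.90 ± 5.79 CPM. Gml had at most 0.217 CPM in any C57BL/6 library, or 0.0386 CPM without replicate 7, and 1.08 to 12.1 CPM in Winnie-Prolapse, and Hemt1, for which RefSeq gives Gml2 as the symbol, at most 0.0362 CPM and 0.517 to 6.66 CPM. Ly6g6e was 13.2 ± 3.64 CPM and 24.3 ± 5.91 CPM (0.96 ± 0.20, adjusted p = 0.000915 in edgeR), and it passed in 3 of the 15 fits that left out 1 library (C57BL/6 replicate 7, Winnie-Prolapse replicate 4 or Winnie-Prolapse replicate 6), whereas Plaur passed in all 15.

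The most abundant of these relatives was Lypd8, which the colonic epithelium releases to keep flagellated bacteria off its surface. C57BL/6 mice held 14548 ± 2152 CPM of it (SD), Winnie mice 16654 ± 3092 CPM and Winnie-Prolapse mice 13636 ± 5445 CPM, above every Ly6 gene in every library. Its log2 fold change in Winnie-Prolapse was 0.01 ± 0.25 (adjusted p = 0.973 in edgeR). The gene 2010109I03Rik, for which RefSeq gives Ly6m as the symbol, was 160 ± 165 CPM in C57BL/6, 540.0 ± 239 CPM in Winnie and 465.9 ± 146 CPM in Winnie-Prolapse. It did not pass the limits (1.61 ± 0.46, adjusted p = 0.00795 in edgeR), but C57BL/6 replicate 7 held 555 CPM of it, and without that library it passed at 2.26 ± 0.30. Lynx1 was 22.2 ± 6.22 CPM in C57BL/6 and 24.0 ± 4.43 CPM in Winnie-Prolapse (0.19 ± 0.16, adjusted p = 0.328 in edgeR). In Winnie against C57BL/6 0 of 14 relatives passed the limits in edgeR, with 9 at an unadjusted p under 0.05, as for 39.9% of all genes. DESeq2 placed 3 past the limits, with 6.32% of all genes. Of these 14, Ly6h and Slurp1 did not reach the low-count filter in C57BL/6 itself, so nothing is read from the count. Between the Winnie groups 0 of 16 relatives passed in edgeR, as for 0.0% of all genes. Of them 6 had an unadjusted p under 0.05, beside 27.8% of all genes, and 4 passed by DESeq2, beside 3.48%.

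**Figure D5:**
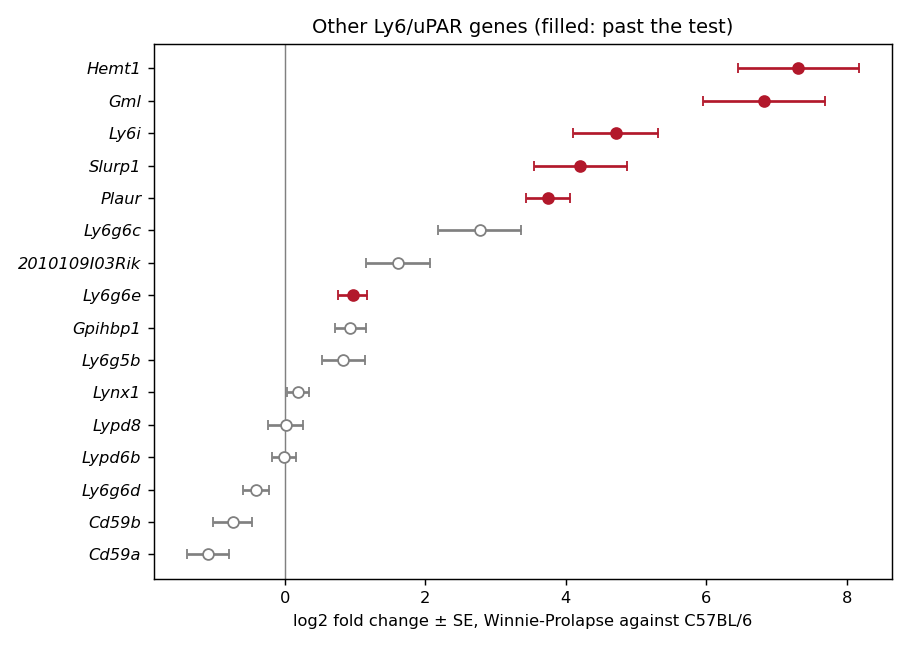
Log2 fold change in Winnie-Prolapse against C57BL/6 (points) with its standard error (bars) of the 16 tested genes of the wider Ly6/uPAR family. Filled points passed an adjusted p under 0.001 and 1.5-fold, and Lypd8, the most abundant, lies at 0.01. Gml and Hemt1 had next to no counts in C57BL/6, so their fitted values are no bound.

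Genes with a pattern like that of a Ly6 gene were ranked by the root mean square difference of log2 CPM, centred on the C57BL/6 mean, over all 22 libraries and among 13597 genes. Those nearest to Ly6c1 were Il18bp (0.49), Fcgr4 (0.54), H2-DMb1 (0.58), Igtp (0.61) and Ccl8 (0.63), and Ly6a came at rank 22 (0.82). Il18bp, for example, averaged 5.30 CPM in C57BL/6, 41.4 CPM in Winnie and 77.5 CPM in Winnie-Prolapse. Nearest to Ly6a were Psmb9 (0.34) and Psmb8 (0.42), and nearest to Ly6e were Ctsc (0.19) and H2-D1 (0.23). Ly6d was nearest to Clec7a (0.79) and Inhbb (0.89). Ly6g was nearest to Pla2g4f (0.72), which averaged 65.7 CPM in C57BL/6, 92.4 CPM in Winnie and 94.3 CPM in Winnie-Prolapse, and to Gm8540 (0.85). The ranking for Ly6g includes C57BL/6 replicate 7, where Ly6g was at 3.80 CPM, and none without that library is given. Ly6k was nearest to Dsc2 (0.67) and 1700066B19Rik (0.69). These distances are a description of the libraries, which the genes share.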

How the data were processed

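RNA of distal colon from 22 mice was sequenced by the authors as stranded poly(A) libraries in paired ends of 100 bases. The deposited table holds raw counts per gene, which the authors made with the RNAsik pipeline, the aligner STAR and featureCounts on GRCm38; the annotation release, the strand setting and the handling of shared reads were not given in the sources used here. Groups, sex and age came from the labels. The labels give 7 Winnie mice, 1 more than the study's text, and all 7 were used; which mouse the text leaves out is not given in the sources used here. Replicate numbers follow the sample list and pair no mice, and no batch is named. No 2 libraries of a group were duplicates: their chi-square per degree of freedom, over genes with 20 or more counts in the pair, was never under 28.8.

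The count test was that of edgeR 4.0.16 (TMM, filterByExpr, quasi-likelihood F test, Benjamini-Hochberg adjustment) in R 4.3.3, each comparison on its own 2 groups. A gene was called at an adjusted p under 0.001 and at least 1.5-fold; sex and interaction were called at 0.05. The script was tested on simulated data. CPM are counts scaled by library totals, and log2 CPM had a prior count of 2. Alternatives were DESeq2 1.42.0, limma-voom (limma 3.58.1), no TMM, other filters (none, or at least 10 counts in every library), an adjusted p under 0.05, all 3 groups in one fit, sex as a covariate, milk protein genes left out and leaving out each library. Leaving out C57BL/6 replicate 7 and Winnie-Prolapse replicate 6 together was chosen after seeing the data. The Ly6 genes and all lists were chosen with earlier results of these data known. All 7 were named, as were every relative called, at most 5 genes of each other list with the highest mean CPM, and the 5 (Ly6c1) or 2 (others) genes with the nearest pattern among those averaging 1 or more log2 CPM. Beyond this rule Ifng, Pigv, Pgap3, Cd59a and Cd59b were named after their values were seen, as were single cell type markers such as Sprr1a and Plac8. The nearest patterns of Ly6c2 are not reported here. Marker lists are given by their sums. Limits of 3 counts cover counting error only, since reads are not independent molecules. Gene models are from GENCODE M21 and upstream sequences from RefSeq (GRCm38.p6).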

Additional observations from a re-analysis of the deposited data

Results flagged for a closer look

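In 2 of 21 sets of values (7 genes in 3 groups) the highest or lowest library stood away from the rest by Dixon's test, which chance gives in about 1 in 20. Both were Ly6g. C57BL/6 replicate 7 had 3.80 CPM where the other 7 had 242 to 356 CPM, and this is the library with low Hoxb13 and Hoxd13. Winnie-Prolapse replicate 3 had 872 CPM where the other 6 had 302 to 521 CPM. It had 85.4 CPM of summed neutrophil markers, the second lowest of its group.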

How the results depend on the processing

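No paired analysis was possible because the replicate numbers follow the sample list and mark no shared animal, litter or day. No called result changed sign. Among values that were not called, Ly6g between the Winnie groups was -0.04 without Winnie-Prolapse replicate 3, and the sex differences of Ly6d and Ly6g lay on both sides of 0. All 455 alternative log2 fold changes of the Ly6 genes between groups stayed within the spread between libraries, 1 SD. In Winnie against C57BL/6, the count of Ly6 genes past the limits (0) became 4 at an adjusted p under 0.05 (15.9% of all genes), 4 by DESeq2 (6.32%), 2 without a filter (0.232%) and 3 with all 3 groups in one fit (1.12%), and lay between 0 and 3 on leaving out a library, with 3 without Winnie replicate 5 and 1 without Winnie replicate 4. There the relatives (0) became 6 at 0.05 and 3 by DESeq2, with 0 to 1 on leaving out a library, the 1 being without C57BL/6 replicate 7. Slurp1, among the 6, did not reach the low-count filter in C57BL/6 itself, so its place there was in part fixed by the filter. GPI genes (0) became 1 at 0.05. Interferon genes (0) became 12 at 0.05, 10 by DESeq2, 3 without a filter and 6 with all 3 groups, and 0 to 8 on leaving out a library, with 8 without Winnie replicate 5 and 3 without Winnie replicate 4. Over all genes the count of 16 lay between 0 and 677 on leaving out a library, with 677 without Winnie replicate 5 and 32 without C57BL/6 replicate 7.

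In Winnie-Prolapse against C57BL/6, the 6 relatives (4 of them tested only through Winnie-Prolapse) became 12 at 0.05 (10 higher, 2 lower), 17 by DESeq2 (16 higher, Cd59a lower; it tests more genes), 10 without a filter and 2 with at least 10 counts in every library (which tests fewer), and 5 to 8 on leaving out a library. The Ly6 genes (5) were 6, with Ly6k, by DESeq2 (23.0% of all genes), at 0.05 (34.4%), with all 3 groups (20.1%) or with sex as a covariate (17.8%), and 4 by limma-voom (17.6%). They stayed between 4 and 5 on leaving out a library, with Ly6c2 the one lost, except that Ly6k passed in its place without Winnie-Prolapse replicate 4. Without C57BL/6 replicate 7 and Winnie-Prolapse replicate 6 together, Ly6a, Ly6c1, Ly6d and Ly6e passed and Ly6c2 did not, at a log2 fold change of 2.02 ± 0.45 (SE). The relatives were 8 there. The share of all genes past the limits in that fit is not given here, so nothing is read from it. Ly6g6e was not called without a filter, without TMM, with sex as a covariate or with at least 10 counts in every library. Between the Winnie groups, the Ly6 genes (0) became 2 at 0.05 (6.99% of all genes) and 1 by DESeq2 (3.48%), relatives (0) 2 and 4, and interferon genes (0) 3 and 2. For sex, the count of 0 Ly6 genes lay between 0 and 1, the 1 being Ly6k without Winnie replicate 2. The share of all genes called in that sex fit is not given here, so nothing is read from the 1. The 1 correlated pair became 6 pairs without C57BL/6 replicate 4, 3 without Winnie replicate 2, 2 without Winnie replicate 4 or 6 and 0 without Winnie replicate 1, 3, 5 or 7, where fewer mice raise the smallest p. Where no cause is given here, the cause was not tested. Depth limits Ly6k, which had as few as 2 counts in a library.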
